A study of Rattus norvegicus with 16 samples.

Results

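The genes described here are 79 rat transporters of sugars, monocarboxylates, bile acids and organic ions, out of 19776 genes with a symbol on the array. They were taken by symbol: 12 genes of the Slc2 family, 13 of Slc5, 7 of Slc10, 13 of Slc16, 19 of Slc22 and 15 of Slco. Each gene was read by its probe with the brightest mean signal of the tissue channel, 12 of the genes had more than 1 probe, and no difference between groups entered the choice. All tissues came from suckling Wistar Han rats of 21 days that stayed with their dams. C rats received saline by gavage and OH rats received obestatin, a peptide of the ghrelin precursor, at 250 nmol/kg BW, in both cases 2 times a day from day 14 of life, with treatments assigned by litter. There were 16 arrays, 4 for each tissue (stomach or middle intestine) of C rats and 4 for each tissue of OH rats, every array carrying the tissue of 1 rat in Cy5 and a reference pooled from all rats in Cy3. Values are log2 ratios of Cy5 to Cy3, so 0 is the level of the pool, and they say nothing of the level of one gene against another. A sample of whole tissue cannot tell fewer cells of a type from less RNA per cell.

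Enterocytes take up glucose and galactose from the lumen with sodium through Slc5a1 (SGLT1), fructose through Slc2a5 (GLUT5), and release sugars to the blood through Slc2a2 (GLUT2). Monocarboxylate transporters of the Slc16 family move lactate, ketone bodies, short-chain fatty acids, thyroid hormone or aromatic amino acids across membranes. Bile acids are recovered in the ileum by Slc10a2 and in the liver by Slc10a1, while Slc22 and Slco proteins carry organic cations, carnitine, prostaglandins, drugs and hormone conjugates.

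The probes are shown for the transporters on which the comparisons turned, since each value is the signal of 1 probe. The lines give the leading 30 bases of the 60 bases of the probe, and positions follow the design of the array (rn4). They lie at chr14:83311268-83311327 (-) for Slc5a1, chr2:116065774-116065833 (+) for Slc2a2, chr5:167285699-167285758 (+) for Slc2a5, chr1:208604446-208604505 (-) for Slc22a20 and chr10:110163119-110163178 (+) for Slc16a3. Slc5a5, the sodium and iodide symporter, had the probe used at chr16:19056181-19056240 (+) and a dimmer probe at chr16:19053093-19053152 (+).
Slc5a1: actatctgtactttgccatcatcctcttcg
Slc2a2: ggagtcaggcattttgcatattgcctccaa
Slc2a5: gaattatcaactgtcaacgacagtattctg
Slc5a5 (probe used): tcattctttttcattgccaagttgtcttgt
Slc5a5 (dimmer probe): tttacgccatctcctatctctattacgggg
Slc22a20: ctgactgagacccgcaatgtgccactggtg
Slc16a3: tttctgggcagtggtctgttcaccctgagt

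The tissue labels were checked with marker genes. All 12 tested genes of gastric glands and surface mucosa were higher in stomach in C rats, and 10 of 12 enterocyte genes were higher in middle intestine, with 1 enterocyte gene higher in stomach. Of 8 tested pancreas genes, 7 were higher in stomach in C rats (median log2 difference of the list 2.93) and 6 in OH rats (2.12), and their part in the tissue differences was not tested. The 4 groups were hybridised on 4 slides, 1 for each group, and the OH slides were scanned on a day other than the C slides, so treatment cannot be told apart from slide or scan day. The median raw Cy3 signal of the shared reference was 188 to 195 scanner units on C arrays and 341 to 399 on OH arrays. The C stomach arrays differed among themselves: the mean log2 ratio of 14 striated muscle genes was 3.42, -0.70, 3.01 and 3.81 on replicates 1 to 4, against -0.36 to 0.80 on the OH stomach arrays and -0.71 to -0.62 in middle intestine.

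A lower share of the transporters than of all genes on the array was detected, and the share was lowest in the Slco family. A gene was called detected where its Cy5 signal was well above background on all 4 arrays of a group. This held for 46 of 79 members in the stomach of C rats (58.2%) and of OH rats (58.2%), beside 70.7% and 70.3% of all genes with a symbol. It held for 40 members in the middle intestine of C rats (50.6%) and 44 in that of OH rats (55.7%), beside 65.6% and 67.4% of all genes. Of the 15 Slco genes, 3 were detected in C middle intestine and 4 in each other group. Of the 13 Slc16 genes, by contrast, 11 were detected in each stomach group and 9 in each intestinal group. By this probe, 38 members were well above background on all 16 arrays and 11 on none.

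**Figure D1:**
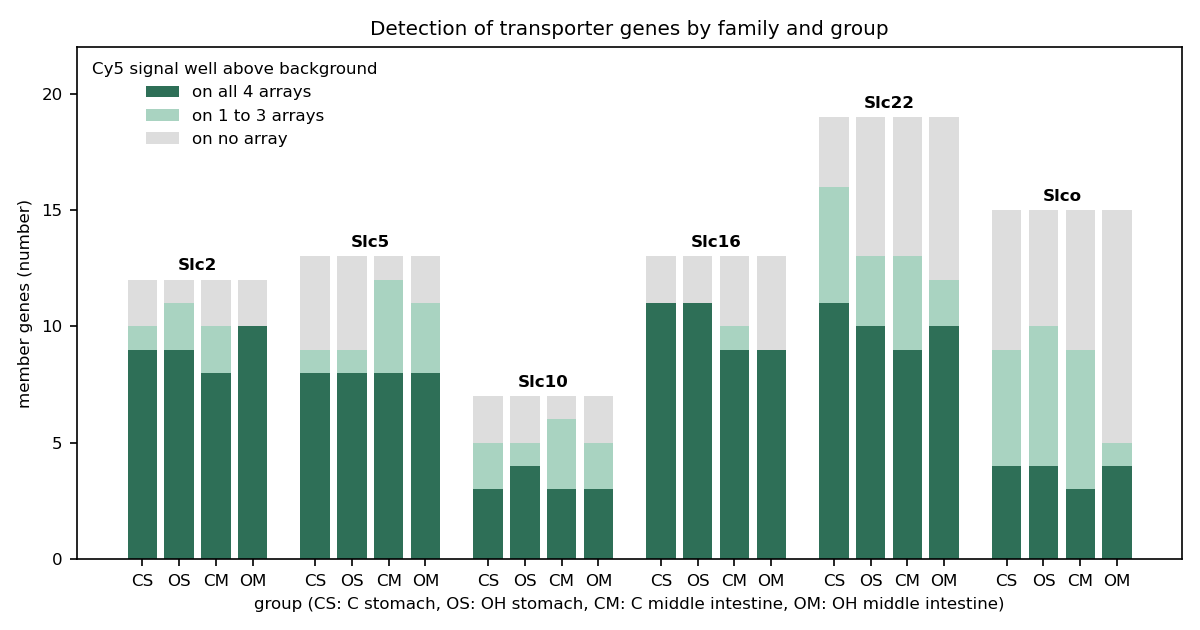
Number of member genes of each family (y axis) whose Cy5 signal was well above background on all 4 arrays, on 1 to 3 arrays or on no array of a group (x axis, 4 bars for each family). The Slco bars hold 3 or 4 genes detected on all 4 arrays out of 15, and the Slc16 bars 9 or 11 out of 13.

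By the brightest probe, 11 members were well above background on no array. They were Slc10a1, the bile acid carrier of hepatocytes, Slc22a12, the renal urate exchanger, Slco1a1 and Slco1a5, carriers of bile salts and hormone conjugates, Slc2a7, Slc5a4b, Slc16a12, Slc16a14, Slc22a13, Slc22a22 and Slco6d1. Counting any probe of a gene, 1 more gene each of the Slc22 and Slc5 families was well above background on at least 1 OH stomach array. Slc10a2, the ileal bile acid carrier, was well above background on 0 of 8 stomach arrays and on 1 of 4 arrays of each intestinal group. Its log2 ratio on those intestinal arrays was 0.56, 1.33, 0.70 and 0.46 in C rats and 2.53, 0.13, -0.26 and -0.56 in OH rats. Slc5a12, a sodium-coupled lactate carrier, was well above background on 2 of 4 arrays of each intestinal group and on no stomach array by its brightest probe, with intestinal ratios from 0.55 to 3.36 in C rats and from 1.24 to 5.20 in OH rats. Slc5a8, its relative, was well above background on 1 array of all 16. Slc2a3, the neuronal type glucose transporter, was well above background on 3 arrays of OH stomach and on no other array. In total 29 members did not reach 4 of 4 arrays in any group and were not tested, and 50 were tested.

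Stomach and middle intestine differed in most of the tested transporters. In C rats, 30 of 50 differed between the tissues (limma, Benjamini-Hochberg adjusted p under 0.05 over all probes), 16 higher in stomach and 14 higher in middle intestine. Over all 14524 genes tested, 46.7% differed, 22.8% higher in stomach and 23.9% higher in middle intestine. The median size of the log2 difference was 1.09 for the members and 0.46 for all genes. In OH rats, 27 of 50 differed, 11 higher in stomach and 16 higher in middle intestine, where 40.8% of all genes differed, 20.3% and 20.5% by direction. Of the members, 23 were called in the same direction in C and OH rats, which is 76.7% of the C calls and 85.2% of the OH calls, beside 72.4% and 82.9% for all genes, and 0 were called in opposite directions. Slc10a3, Slc22a18, Slc22a23, Slc22a6, Slc2a8, Slco2a1 and Slc5a3 were called in C rats and not in OH rats, and Slc16a6, Slc22a4, Slco4a1 and Slc22a17 in OH rats and not in C rats. For none of these 11 was the difference itself past the threshold. The 4 C arrays of each tissue did not overlap for 28 members, and those of OH rats for 26, beside 45.2% and 37.7% of all genes.

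**Figure D2:**
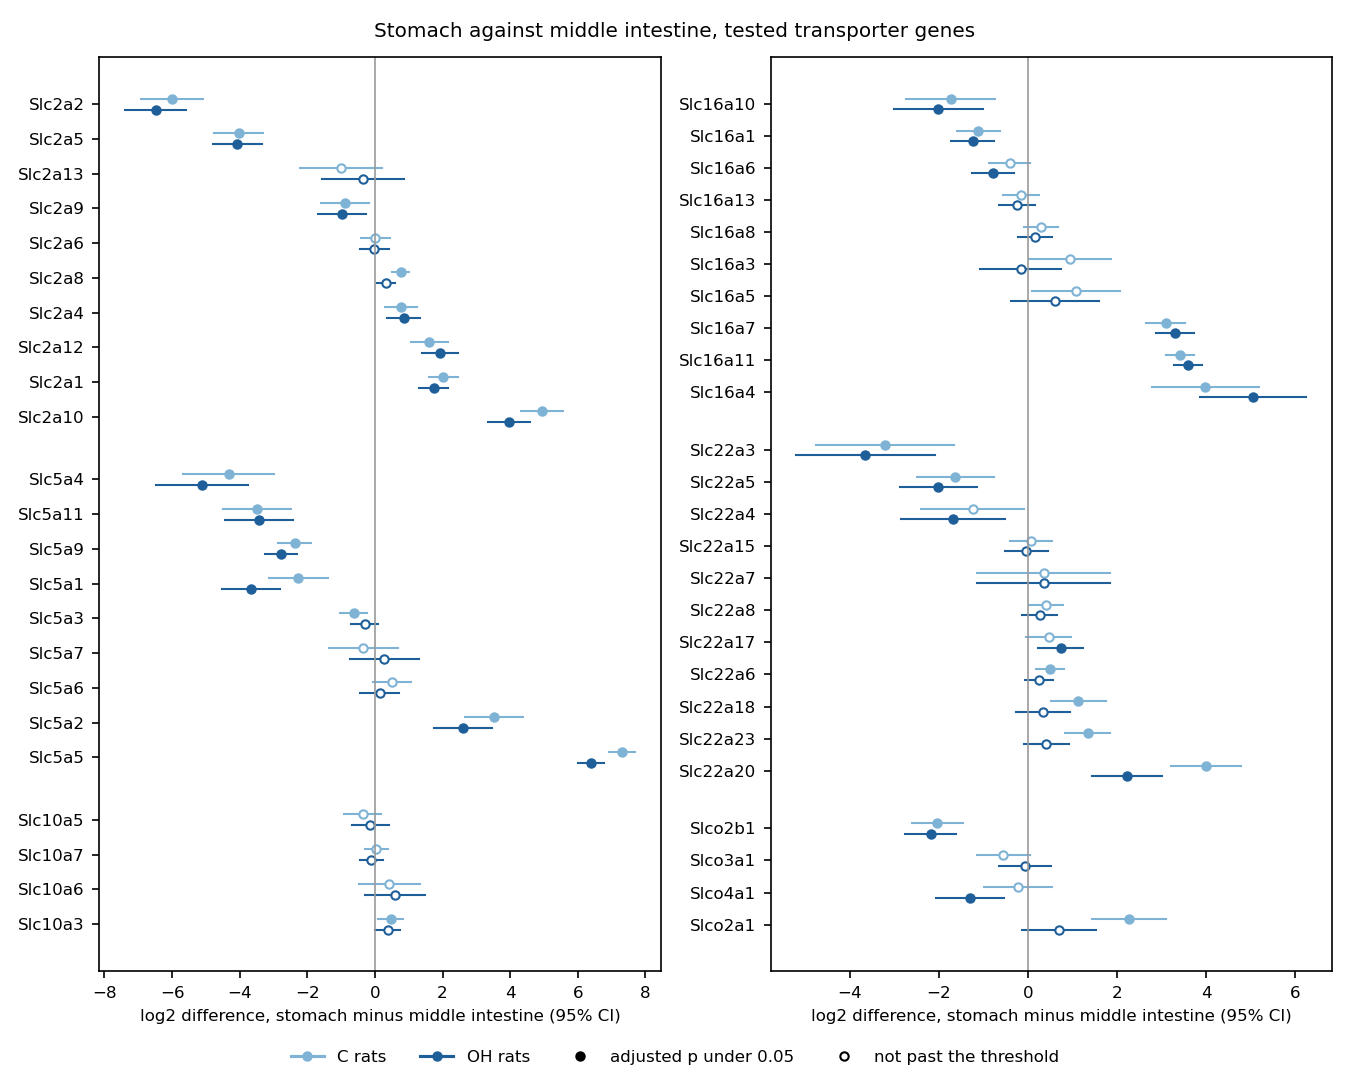
Log2 difference of stomach minus middle intestine (x axis) for the tested members reported here, by family and ordered by the value in C rats, with C rats in light blue and OH rats in dark blue. Lines are 95% confidence intervals of limma, and filled points passed an adjusted p of 0.05. Slc5a5 lies farthest to the right and Slc2a2 farthest to the left.

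The main transporters of dietary sugar were higher in middle intestine. Slc2a2 had log2 ratios of -1.05, 0.04, 0.91 and -0.46 in C middle intestine and -6.12, -6.00, -6.29 and -6.19 in C stomach. The tissues were far apart on every array, and the fold was 64.3 in C rats (log2 difference of stomach minus middle intestine -6.01, SE 0.43, adjusted p = 5.0e-08) and 89.7 in OH rats (-6.49). Slc2a5, the fructose carrier, had ratios of 0.42, 0.84, 1.74 and 0.06 in C middle intestine and -3.23, -3.22, -3.29 and -3.31 in C stomach. It was 16.3-fold higher in middle intestine in C rats (adjusted p = 3.23e-07) and 16.8-fold higher in OH rats (adjusted p = 3.15e-07), with little spread among stomach arrays of either group.

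Slc5a1 had ratios of -0.40, -0.08, 0.54 and -0.22 in C middle intestine against -2.19, -2.26, -2.43 and -2.34 in C stomach. Again no array of one tissue reached the other, and the gene was 4.80-fold higher in middle intestine in C rats (log2 difference -2.26, SE 0.40, adjusted p = 0.00042) and 12.7-fold in OH rats (-3.67, SE 0.40, adjusted p = 5.7e-06). The difference between these values was not past the threshold (log2 -1.41, SE 0.57, adjusted p = 0.84). In the separate channels, stomach minus middle intestine was -2.99 in Cy5 and -0.72 in the Cy3 reference in C rats. In OH rats it was -3.81 and -0.15. Slc5a4, a glucose-sensing member of the family with the near copy Slc5a4b next to it, was well above background on all 8 intestinal and on 0 of 8 stomach arrays. The fold of its ratios was 20.1 in C rats (log2 difference -4.33, adjusted p = 7.3e-05) and 34.6 in OH rats (-5.11, adjusted p = 1.7e-05), with stomach values that lay below detection. In the Cy5 channel alone, without the reference, it was at least 26.1-fold and at least 39.8-fold higher in middle intestine, setting the intestinal mean against the lowest signal that counted as well above background. Whether the probe also reads Slc5a4b was not tested. Slc5a9, a mannose and fructose carrier, and Slc5a11, a myo-inositol carrier, were 5.20-fold and 11.2-fold higher in middle intestine in C rats (adjusted p = 1.1e-06 and 3.7e-05) and 6.85-fold and 10.8-fold in OH rats. Slc2a9, a urate and sugar carrier, was 1.86-fold higher in C middle intestine (adjusted p = 0.040), a call that ended without 6 of the 8 arrays taken out singly.

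Other sugar carriers were higher in stomach. Slc2a1, the glucose carrier of many dividing and barrier cells, had ratios of 1.22, 0.80, 1.28 and 1.24 in C stomach and -0.43, -0.89, -1.01 and -1.24 in C middle intestine, a 4.08-fold difference (adjusted p = 1.9e-06) that was 3.33-fold in OH rats. Slc2a10 was 30.9-fold higher in stomach in C rats and 15.6-fold in OH rats (adjusted p = 6.8e-09 and 7.7e-08), and its 2 probes gave log2 differences of 4.95 and 4.99 in C rats. Slc2a12 was 3.05-fold and 3.81-fold higher in stomach, and Slc2a4, the insulin-regulated carrier of muscle and fat, 1.71-fold and 1.80-fold. On C stomach replicate 2, where the striated muscle genes were low, Slc2a4 had its highest C stomach ratio, 1.71 against 0.81 to 1.27. Slc2a8 was 1.69-fold higher in C stomach (adjusted p = 0.00021) and 1.24-fold in OH stomach, where it was not called (adjusted p = 0.058). Slc5a2 (SGLT2), better known from the kidney, had ratios of 3.46, 2.23, 3.20 and 3.07 in C stomach. In C middle intestine its ratios ran from -0.87 to -0.15, and it was well above background on 2 of 4 arrays. The difference was 11.5-fold in C rats (adjusted p = 7.0e-06) and 6.04-fold in OH rats (adjusted p = 0.00014).

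Partner genes of sugar digestion and use were listed with the transporters. In both C and OH rats, 3 of 13 tested were higher in stomach and 9 were higher in middle intestine. The log2 differences in C rats were -7.24 for Si (sucrase-isomaltase), -2.70 for Lct (lactase), -3.16 for Treh (trehalase) and -3.41 for Khk (ketohexokinase, which phosphorylates fructose). All 4 genes were higher in middle intestine, as were Slc2a5 and Slc5a1.

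Slc5a5 showed the largest difference of the tested members in C rats, and it was toward the stomach. This symporter brings iodide into thyroid cells and is known to be present in gastric mucosa. Its ratios were 2.71, 2.38, 2.66 and 2.63 in stomach and -4.74, -4.51, -4.80 and -4.78 in middle intestine in C rats. In OH rats they were 1.25, 1.97, 2.25 and 1.69 in stomach and -4.59, -4.89, -4.31 and -4.63 in middle intestine. Every stomach array lay above every intestinal array, and the fold was 158 in C rats (log2 difference 7.30, SE 0.18, adjusted p = 8.9e-13) and 83.9 in OH rats (6.39, SE 0.18, adjusted p = 5.3e-12). The dimmer probe gave the same direction with smaller differences, 3.85 in C and 3.42 in OH rats on the log2 scale. Slc5a3, a myo-inositol carrier, was 1.55-fold higher in C middle intestine (adjusted p = 0.012). Slc5a6, the carrier of biotin and pantothenate, and Slc5a7, the choline carrier of cholinergic nerves, were not called in either group, with 95% intervals of the log2 difference in C rats from -0.07 to 1.07 and from -1.37 to 0.67.

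**Figure D3:**
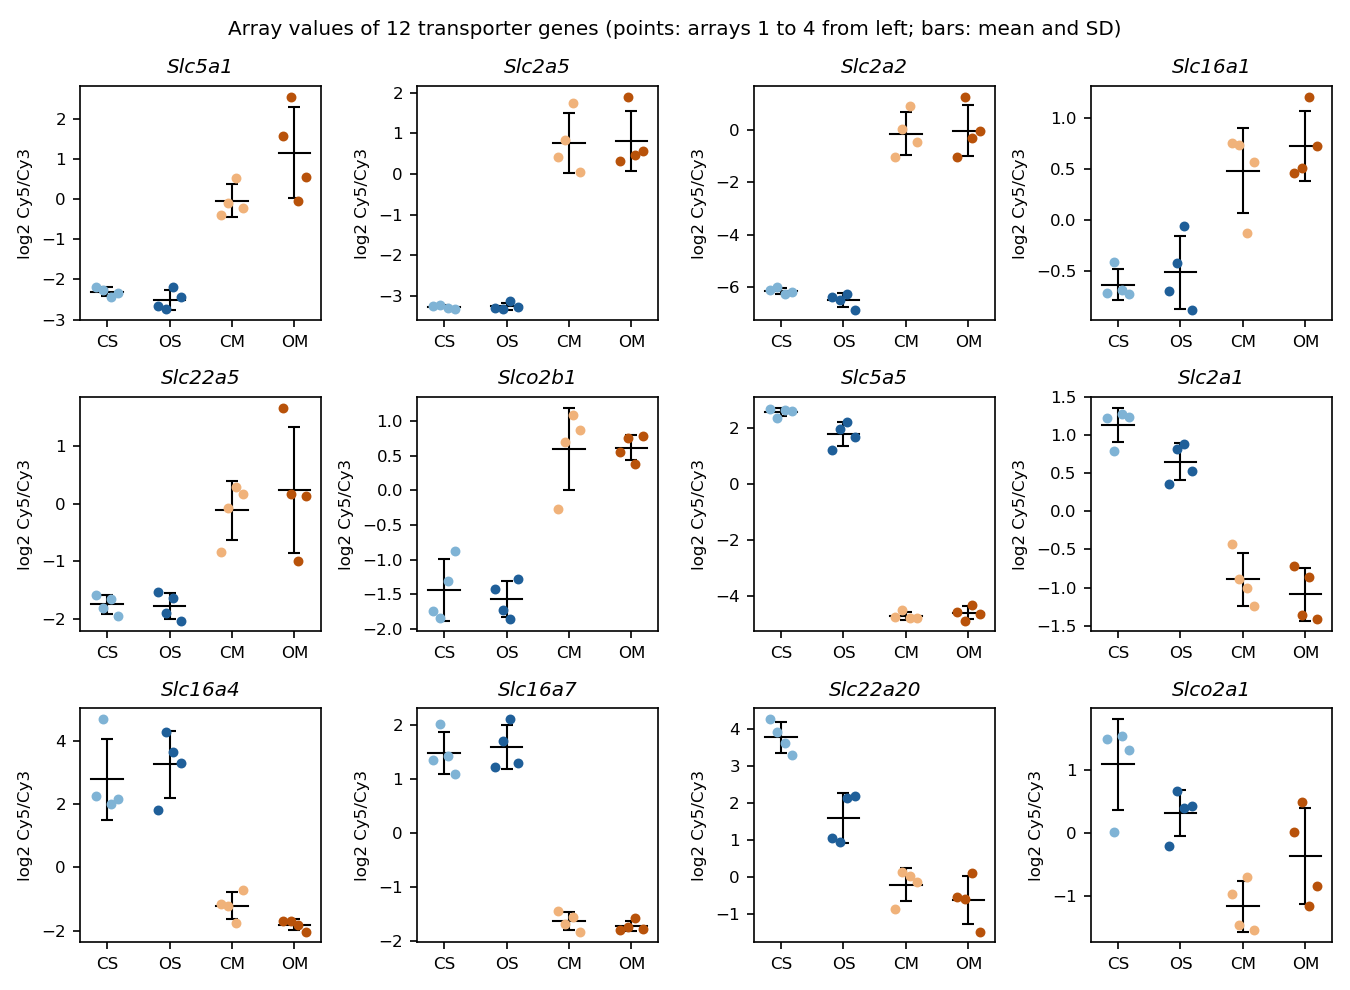
Log2 ratio of Cy5 to Cy3 on each array (y axis) for 12 members in stomach of C (CS) and OH (OS) rats and middle intestine of C (CM) and OH (OM) rats, with the mean and SD of 4 arrays as black bars. Read by row, the panels from Slc5a1 to Slco2b1 show genes higher in middle intestine and those from Slc5a5 to Slco2a1 genes higher in stomach in C rats, with scales set for each panel.

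Monocarboxylate carriers were divided by tissue. Slc16a1 (MCT1), which carries lactate and short-chain fatty acids, had ratios of 0.76, 0.74, -0.12 and 0.58 in C middle intestine. All lay above its C stomach ratios of -0.72 to -0.41, and it was 2.17-fold higher in middle intestine in C rats (adjusted p = 0.0010) and 2.36-fold in OH rats (adjusted p = 0.00053). Slc16a10, a carrier of aromatic amino acids and thyroid hormone, was 3.33-fold and 4.03-fold higher in middle intestine. Slc16a7 (MCT2), a high-affinity pyruvate and lactate carrier, ran the other way, with ratios of 1.35, 2.02, 1.42 and 1.1 in C stomach and -1.43, -1.68, -1.55 and -1.82 in C middle intestine, an 8.53-fold difference (adjusted p = 2.4e-08) that was 9.83-fold in OH rats. Slc16a11 was 10.6-fold and 12.0-fold higher in stomach in C and OH rats. Slc16a13, whose probe at chr10:57056541-57056600 lies beside that of Slc16a11 at chr10:57055215-57055274 on rn4, had a log2 difference of -0.16 in C rats (SE 0.19, adjusted p = 0.53). Slc16a4 was well above background on all 8 stomach and 0 of 8 intestinal arrays. The fold of its ratios was 15.8 in C rats (adjusted p = 5.1e-05) and 33.3 in OH rats (adjusted p = 5.6e-06), and in the Cy5 channel alone it was at least 17.1-fold and at least 18.7-fold higher in stomach.

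Slc16a3 (MCT4), the lactate exporter of glycolytic tissue such as fast muscle, was not called between the tissues in C rats (log2 difference 0.95, SE 0.43, adjusted p = 0.085). Its ratios in C stomach were 2.16, -0.22, 2.29 and 2.06, so that replicate 2 lay below every C middle intestine array and the other 3 above them. Replicate 2 was also the C stomach array on which the striated muscle genes were low. Without it the log2 difference was 1.55 (limma, adjusted p = 7.0e-05), a value that rests on leaving out the array that lay apart for this gene. With it as the lone C stomach array, a fit chosen after seeing the data, the log2 difference was -0.84. Among the partner genes of this family, 9 of 11 were higher in stomach and 1 in middle intestine in C rats, and 7 and 1 in OH rats. Bsg (basigin, the chaperone of Slc16a1 and Slc16a3) had a log2 difference of 1.69 in C rats, Ldhb of 2.64 and Ldha, the gene higher in middle intestine, of -0.92.

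The Slc10 family showed little difference between the tissues, while the partner genes of bile acid handling differed strongly. Of 4 tested Slc10 genes, which did not include the bile acid carriers Slc10a1 and Slc10a2, 1 was called in C rats: Slc10a3, an orphan member, 1.38-fold higher in stomach (adjusted p = 0.037). None was called in OH rats, where limma gave 1 gene of the family at an unadjusted p under 0.05, beside 49.3% of all genes. Slc10a5, Slc10a6 and Slc10a7 had log2 differences of -0.36, 0.43 and 0.04 in C rats. Of 11 partner genes tested, 3 were higher in stomach and 8 in middle intestine in C and in OH rats. Fabp6, the ileal bile acid binding protein, Slc51a and Slc51b, the 2 subunits of the basolateral bile acid exporter, had log2 differences of -4.85, -5.85 and -3.56 in C rats (adjusted p = 1.1e-07, 3.1e-07 and 2.1e-07). Fabp6 was well above background on 2 of 4 arrays in each stomach group and on all 8 intestinal arrays.

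Slc22a3 and Slc22a5 were higher in middle intestine and several other Slc22 genes were higher in stomach. Slc22a3 (OCT3), an organic cation carrier, was well above background on 2 of 4 arrays in each stomach group and was 9.20-fold and 12.6-fold higher in middle intestine in C and OH rats (adjusted p = 0.00254 and 0.00114). Its ratios were 2.52, 2.47, 3.92 and 3.59 in C middle intestine and 0.84, -1.75, -0.52 and 1.13 in C stomach. All 4 intestinal arrays lay above all 4 stomach arrays, which were spread widely. Slc22a2 (OCT2) was well above background on 2 C stomach arrays and 1 array in each other group. The carnitine carrier Slc22a5 (OCTN2) had ratios of -0.84, -0.08, 0.30 and 0.17 in C middle intestine and -1.57, -1.81, -1.66 and -1.94 in C stomach, and was 3.1-fold and 4.04-fold higher in middle intestine (adjusted p = 0.0046 and 0.0012). Slc22a4, the ergothioneine carrier, had log2 differences of -1.25 in C rats (adjusted p = 0.076) and -1.68 in OH rats (adjusted p = 0.024).

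Slc22a20, an olfactory-type organic anion carrier, had ratios of 4.29, 3.92, 3.62 and 3.31 in C stomach and 1.06, 0.95, 2.14 and 2.19 in OH stomach. It was well above background on 4 of 4 C stomach arrays, 3 of 4 OH stomach arrays and 0 of 8 intestinal arrays. It was therefore tested only because it passed the filter in C stomach, where its ratios were highest. The log2 difference of its ratios was 4.00 in C rats (adjusted p = 7.8e-07) and 2.22 in OH rats (adjusted p = 0.00025), and in the Cy5 channel alone it was at least 16.2-fold and at least 3.78-fold higher in stomach. Slc22a18 and Slc22a23 were 2.19-fold and 2.52-fold higher in C stomach (adjusted p = 0.0052 and 0.00033) and were not called in OH rats (adjusted p = 0.38 and 0.18). On C stomach replicate 2 they had ratios of -0.0046 and 0.71, against 0.67 to 0.76 and 1.57 to 1.69 on the other 3 arrays, and the striated muscle genes were also lowest on replicate 2. Slc22a6 (OAT1) was 1.40-fold higher in C stomach (adjusted p = 0.014), and Slc22a8 (OAT3), its neighbour, was not called (log2 difference 0.41, adjusted p = 0.080). Slc22a15 was not called by its brightest probe (0.07 in C rats), while its other probe gave 1.04 (adjusted p = 0.0020). Of 13 tested partner genes of organic ion and carnitine handling, 5 were higher in stomach and 4 in middle intestine in C rats, and 3 and 5 in OH rats.

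Of the Slco genes, 4 were tested. Slco2b1, an uptake carrier of steroid sulfates and drugs, had ratios of -0.26, 0.70, 1.09 and 0.87 in C middle intestine and -1.74, -1.83, -1.30 and -0.87 in C stomach, and was 4.10-fold higher in middle intestine in C rats (adjusted p = 2.9e-05) and 4.55-fold in OH rats (adjusted p = 1.6e-05). Slco2a1, the prostaglandin carrier, was 4.82-fold higher in stomach in C rats (adjusted p = 0.00029) and 1.62-fold in OH rats, where it was not called (adjusted p = 0.18). Its ratio was 0.02 on C stomach replicate 2 and 1.33 to 1.55 on the others. With replicate 2 as the lone C stomach array, a fit chosen after seeing the data, the log2 difference was 1.19. Slco4a1, a thyroid hormone carrier, was called in OH rats (log2 difference -1.30, adjusted p = 0.00995) and not in C rats (-0.22, adjusted p = 0.64), and the difference of these values was not past the threshold in limma. Slco3a1 was not called in either group.

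No member differed between OH and C rats past the threshold of limma in either tissue alone. In stomach, limma called 0 of 50 members and 0% of all genes. At an unadjusted p under 0.05 there were 9 members, beside 10.8% of all genes. The OH and C arrays did not overlap for 4 members, Slc22a20, Slc5a5, Slc2a10 and Slc22a18, all lower in OH, beside 7.09% of all genes. Of the 50 members, 35 had a lower mean in OH stomach and 15 a higher one, and the median log2 difference was -0.12, beside 0.00 for all genes tested.

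The 5 members with the smallest p in stomach were all lower in OH rats. Slc22a20 had a log2 difference of OH minus C of -2.20 (SE 0.37, adjusted p = 0.10), with its lowest C array at 3.31 and its highest OH array at 2.19. Its probe passed the detection filter only through C stomach, the group where its ratios were highest. In the separate channels the Cy5 signal differed by -1.39 and the Cy3 reference by 0.81. Slc5a5 differed by -0.81 (SE 0.18, adjusted p = 0.23), and its dimmer probe by -0.47 (adjusted p = 0.43). Slc22a23 differed by -0.92 (SE 0.23, adjusted p = 0.25), and its other probe by -0.49 (adjusted p = 0.57). Slc16a3 differed by -1.62 (SE 0.43, adjusted p = 0.26) and Slc5a2 by -1.49 (SE 0.40, adjusted p = 0.26). Slc5a2 had ratios of 1.86, 1.16, 2.61 and 0.37 in OH stomach, which overlap those of C stomach on 1 array.

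**Figure D4:**
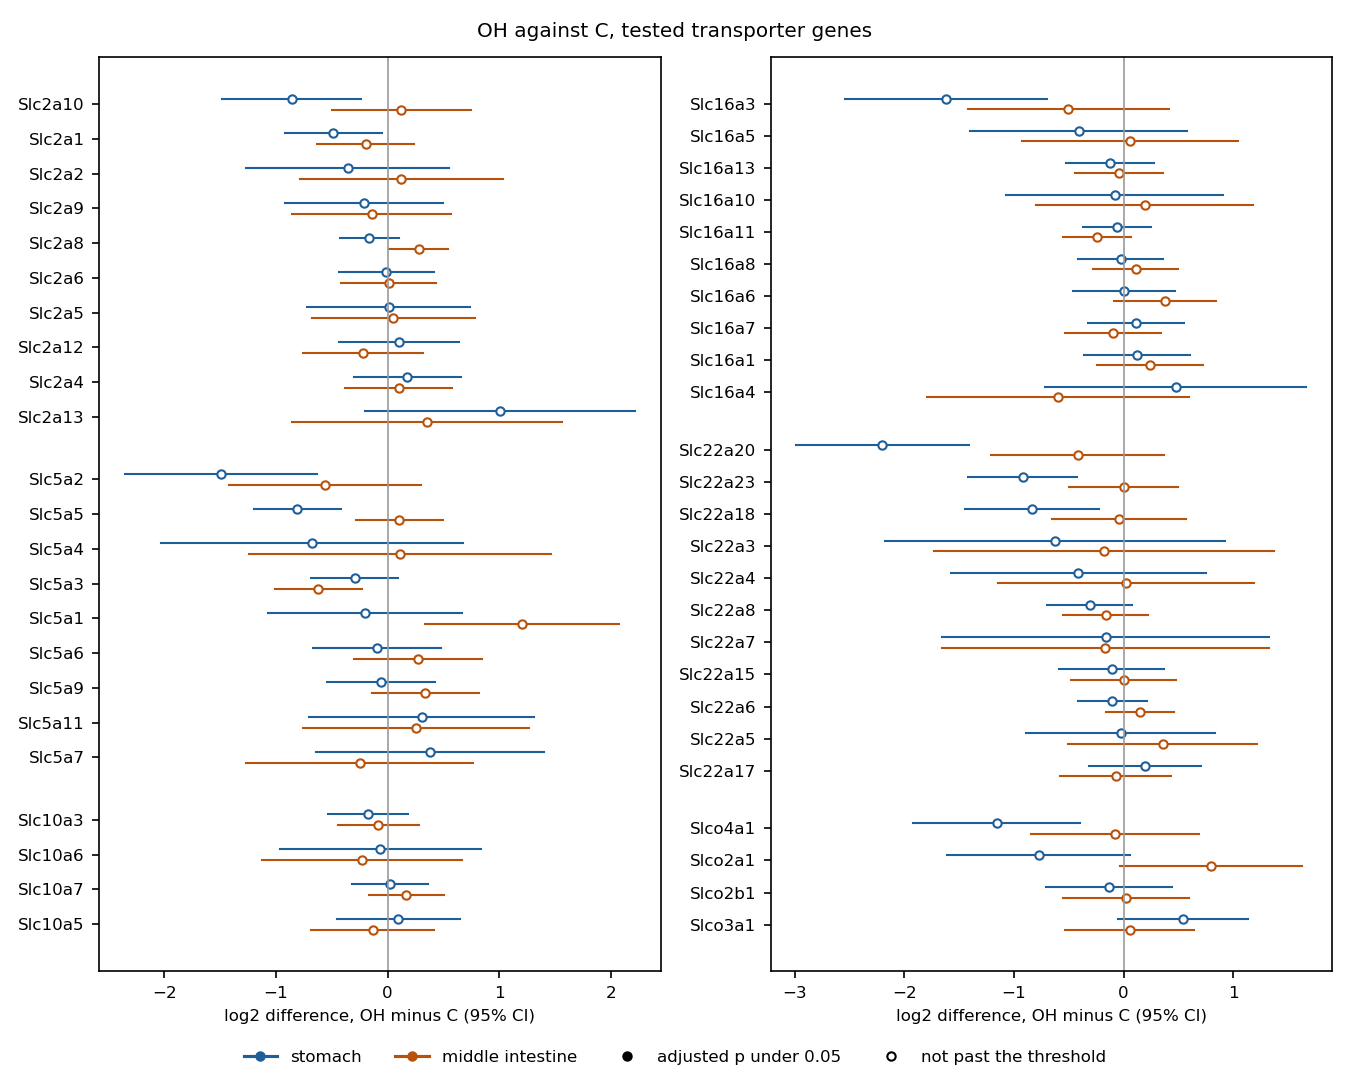
Log2 difference of OH minus C (x axis) for the tested members reported here, in stomach (blue) and middle intestine (brown), with 95% confidence intervals of limma. All points are open because no member passed an adjusted p of 0.05 in either tissue.

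These values changed with C stomach replicate 2 and with the test. By the methods' ANOVA and Tukey's HSD, 6 members were lower in OH stomach (Slc16a3, Slc22a20, Slc22a23, Slc5a2, Slc5a5 and Slco4a1), beside 3.12% of all genes, and 1 member, Slc5a3, was lower in OH middle intestine, beside 3.8% of all genes. Without C stomach replicate 2, limma called 4 members lower in OH stomach, Slc16a3, Slc22a20, Slc22a23 and Slc5a5, beside 1.59% of all genes. For Slc16a3 and Slc22a23 the array left out was the one that lay apart from the other C stomach arrays. With array weights it called 8 members, all lower, beside 5.67% of all genes. Slc16a3 was at -0.31, 0.37, 0.16 and -0.41 on the OH stomach arrays, above and below its value of -0.22 on C stomach replicate 2. With that replicate as the only C stomach array, a fit chosen after seeing the data, its log2 difference was 0.17. Without that replicate it was -2.22 (limma, adjusted p = 8.7e-05), a value that rests on leaving out the array that lay apart for this gene. Slc22a20 was high on all 4 C stomach arrays, including replicate 2 at 3.92, and C stomach is the group through which its probe passed the detection filter. The mean of the 12 genes of gastric glands and surface mucosa was 2.41, 3.17, 3.24 and 2.29 on OH stomach replicates 1 to 4. On the C stomach arrays it was 2.91 to 3.35. The part of the striated muscle genes and of gastric gland content in these differences was not tested.

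**Figure D5:**
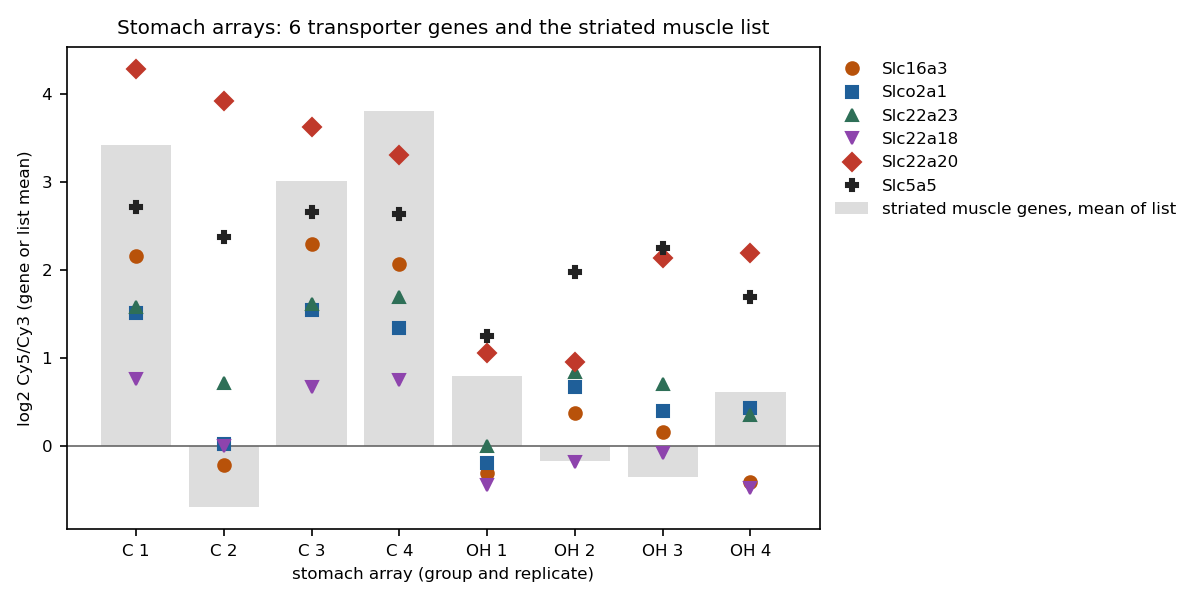
Log2 ratio of Cy5 to Cy3 (y axis) on the 8 stomach arrays (x axis, group and replicate) for 6 members as symbols, with the mean of 14 striated muscle genes as grey bars. Slc16a3, Slco2a1, Slc22a23 and Slc22a18 sit lower on C replicate 2, where the bar is at -0.70, and Slc22a20 and Slc5a5 are above all OH arrays there.

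Some members varied across the OH stomach arrays, as did several marker lists. The mean of 8 smooth muscle genes was 0.96, -1.32, -2.59 and 0.16 on OH stomach replicates 1 to 4. Slc5a7 had ratios of 1.28, -1.41, -0.82 and 0.47 on these arrays, Slc2a13, the proton and myo-inositol symporter, 0.87, -1.34, -2.19 and 0.35, and Slco3a1 0.95, -0.23, -0.26 and 0.81. Replicates 1 and 4 were the high arrays for all 3 genes and for the smooth muscle list. They were also high for the striated muscle genes (0.80, -0.18, -0.36 and 0.61), 5 enteric neuron genes (-0.31, -1.25, -0.95 and -0.54) and a list of leukocyte genes. The 12 genes of gastric glands and surface mucosa (2.41, 3.17, 3.24 and 2.29) and the pancreas genes were lower on replicates 1 and 4 than on 2 and 3. The smooth muscle list had a mean of -0.70 in OH and -2.04 in C stomach, and the part of any list in these values was not tested. The 3 genes had log2 differences of OH minus C in stomach of 0.38, 1.01 and 0.54, and none was called (adjusted p = 0.81, 0.55 and 0.51).

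In middle intestine, limma called 0 of 50 members, beside 0.234% of all genes, and at an unadjusted p under 0.05 there were 3 members, beside 9.31% of all genes. Slc5a3 had ratios of 0.21, 0.09, -0.47 and -0.13 in C and -0.97, -0.88, -0.40 and -0.54 in OH middle intestine, a log2 difference of -0.62 (SE 0.18, adjusted p = 0.18), and 1 OH array lay above the lowest C array. Slc5a1 had ratios of 1.56, 2.56, -0.04 and 0.56 in OH middle intestine, 1 of them within the range of the C arrays and 3 above it. Its log2 difference was 1.20 (SE 0.40, adjusted p = 0.26), of which the Cy5 signal gave 0.48 and the Cy3 reference -0.72. The mean of 12 enterocyte genes on the same 4 OH arrays was 0.92, 1.60, -0.24 and 0.42, and 0.06, 0.44, 0.76 and 0.30 on the C arrays. The highest and the lowest array of each group were those of Slc5a1, which is not on that list: OH replicates 2 and 3, and C replicates 3 and 1. The part of enterocyte content in the difference was not tested.

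The remaining members with the smallest p in middle intestine were Slc2a8, with a log2 difference of 0.28 (SE 0.12, adjusted p = 0.45), Slco2a1, with 0.80 (SE 0.39, adjusted p = 0.51), and Slc16a6, with 0.38 (SE 0.22, adjusted p = 0.60). The 95% interval of OH minus C in middle intestine was -0.67 to 0.78 for Slc2a5, -0.79 to 1.03 for Slc2a2 and 0.34 to 2.07 for Slc5a1 on the log2 scale. For Slco2b1 it was -0.56 to 0.59 and for Slc16a1 -0.24 to 0.72. None of the partner genes was called for OH against C in either tissue.

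The difference between the tissues in OH against C was called for 0 members and 0% of all genes by limma. The 5 smallest p were those of Slc5a5 (log2 -0.91, SE 0.26), Slc22a20 (-1.78, SE 0.52), Slco2a1 (-1.57, SE 0.55), Slc22a23 (-0.92, SE 0.33) and Slc2a8 (-0.44, SE 0.18), each with a more negative OH value in stomach than in middle intestine, at adjusted p of 0.81 or 0.84. Over the mean of both tissues, 1 member was called, beside 0.482% of all genes: Slc22a20, lower in OH (log2 -1.31, SE 0.26, adjusted p = 0.042). Since Slc22a20 was not well above background on any intestinal array, its intestinal values are those of a probe near background. The probe entered the tests only through C stomach, the group where its ratios were highest. In middle intestine its log2 difference of OH minus C was -0.42, with the Cy5 signal higher in OH by 0.31 and the Cy3 reference by 0.73. From Cy5 alone, the log2 difference over both tissues was -0.64 (limma, adjusted p = 0.31). The call ended without any of 11 of the 16 arrays left out in turn. At an unadjusted p under 0.05 there were 9 members, beside 13.7% of all genes, with Slc5a2 (-1.03), Slc5a3 (-0.46), Slc16a3 (-1.06) and Slc22a23 (-0.46) next in order (adjusted p = 0.105, 0.112, 0.115 and 0.202). The other probe of Slc22a23 had the opposite sign over this mean (0.22, adjusted p = 0.67).

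The promoters of Slc5a1 and Slc2a5, higher in middle intestine, and of Slc5a5, higher in stomach, are shown because these genes were called between the tissues in both C and OH rats. The 250 bases before the start of each gene were taken from RefSeq on the GRCr8 build, at chr14:81843085-81843334 (-) for Slc5a1, chr5:165865929-165866178 (+) for Slc2a5 and chr16:18580455-18580704 (+) for Slc5a5. Capitals mark a match to any motif searched on both strands: GTTAAT (HNF1), CAAAGTCCA (HNF4), TTTATG (CDX) and GGGCGG (GC box), none of which overlap in these windows.
Slc5a1: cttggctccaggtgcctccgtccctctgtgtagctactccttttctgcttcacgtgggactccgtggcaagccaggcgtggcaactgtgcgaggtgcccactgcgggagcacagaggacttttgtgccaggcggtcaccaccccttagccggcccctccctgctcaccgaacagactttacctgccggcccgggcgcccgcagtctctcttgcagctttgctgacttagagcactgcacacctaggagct
Slc2a5: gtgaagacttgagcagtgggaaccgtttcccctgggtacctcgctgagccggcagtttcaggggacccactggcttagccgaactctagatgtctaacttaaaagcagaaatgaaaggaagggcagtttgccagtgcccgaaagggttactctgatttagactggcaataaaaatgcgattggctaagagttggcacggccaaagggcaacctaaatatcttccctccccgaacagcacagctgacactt
Slc5a5: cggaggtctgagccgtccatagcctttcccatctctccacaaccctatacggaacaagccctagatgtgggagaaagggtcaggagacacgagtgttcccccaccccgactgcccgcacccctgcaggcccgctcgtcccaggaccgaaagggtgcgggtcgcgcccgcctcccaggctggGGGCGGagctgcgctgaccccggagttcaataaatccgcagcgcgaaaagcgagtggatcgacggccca

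The Slc5a5 window held 1 GC box and the other windows held no match. A promoter was given for 63 of the 79 members, 11 of those called higher in middle intestine and 13 of those called higher in stomach in C rats. Of the 11, 0 held the HNF1, HNF4 or CDX letters, and 3 held a GC box (Slc16a1, Slc16a10 and Slc22a5). Of the 13, 5 held a GC box (Slc10a3, Slc22a23, Slc2a1, Slc5a5 and Slco2a1), 1 the HNF1 letters (Slc16a7), 1 the CDX letters (Slc22a23) and 0 the HNF4 letters. In all 33469 promoters of the table the shares were 6.45% for HNF1, 0.338% for HNF4, 11.4% for CDX and 30.5% for the GC box. A match is a description of the letters in this window.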

How the data were processed

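Stomach and middle intestine RNA was measured on two-colour Agilent arrays with the tissue in Cy5 and the common reference in Cy3, without dye swaps. The authors scanned the arrays and deposited Feature Extraction output (version 10.10.1.1 in the file headers, 10.7.3.1 in the labels) with the intensity of each spot, background-subtracted and Lowess-normalized, together with flags for well above background and outliers. They also deposited a table of log10 ratios, which equalled the LogRatio column of the scanner files on 15 arrays and differed by at most 0.0050 on OH stomach replicate 1. Here log2 ratios of the processed intensity were taken, outlier and control spots left out and spots of a probe averaged. Of 30367 probes, 21174 were kept: those with a Cy5 signal well above background (in at least 0.5 of the spots of the probe) on every array of some group, and with 3 or more values in each group. They were fitted with 1 mean per group over all 16 arrays (limma 3.58.1, R 4.3.3, prior degrees of freedom 2.47), with p adjusted over all probes at 0.05. A gene stood for its brightest probe. The number of arrays limits the precision, and p-values measure the spread between rats of a group, whose arrays shared a slide. Neither the methods nor the labels say which litters these rats came from. Whether the p-values cover the spread between litters, by which treatment was assigned, is therefore not known. For a probe well above background on no array of a group, a fold in the Cy5 channel alone is given as a bound: the mean of the brighter group over the mean, per array, of the higher of the lowest signal well above background and the probe's own, on values of each channel after normalization between arrays, without dye swaps and so open to dye bias. The fit was tested on simulated data. Same-numbered samples of different groups correlated at -0.40 to 0.51 over all pairs of groups, including OH against C. Between stomach and middle intestine, same numbers correlated at 0.06 to 0.25 in C rats and -0.12 to 0.32 in OH rats. Different numbers correlated at -0.16 to 0.08 and -0.34 to 0.30. The methods say that 4 rats of a group were sampled for both tissues, and also that each of the 16 arrays stood for a specific rat. Whether the tissues share rats is therefore not clear. Neither the methods nor the labels tie the numbers to rats, so the tissue comparisons take no account of shared rats.

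Members, gene lists and rules were chosen with earlier results of these data known. Named genes were 39 with a known role in gut or transport, the 10 largest called differences in each direction with no overlap for each tissue comparison, and for each treatment comparison the called members and the 5 smallest p. Symbols and probe positions (rn4) are the array's own, and all 79 members were found in RefSeq (GRCr8), 1 under another symbol (Slco1a2 as Slco1a4). Strand is written as + or -. Alternatives were other background corrections, normalizations, filters, tests and sets of arrays. Protein sequences were not used here, and the values of some members, which enter the counts, are not reported here.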

Additional observations from a re-analysis of the deposited data

Results flagged for a closer look

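Among 140 groups of 4 arrays of named and tested members, 13 held an array whose gap to its nearest neighbour took nearly the whole range of the group, where chance gives about 7 (1 in 20). Of these, 8 were in C stomach and all 8 were replicate 2. Its log2 ratio was above the other 3 arrays for Slc16a4 (4.70 against 2.01 to 2.25, gap over range 0.910), Slc16a1 (-0.41 against -0.72 to -0.68, 0.862) and Slc16a10 (-0.43 against -2.02 to -1.79, 0.856). It was below them for Slc16a3 (-0.22 against 2.06 to 2.29, 0.909), Slc2a1 (0.80 against 1.22 to 1.28, 0.885), Slc22a23 (0.71 against 1.57 to 1.69, 0.884), Slc22a18 (-0.0046 against 0.67 to 0.76, 0.883) and Slco2a1 (0.02 against 1.33 to 1.55, 0.860). The striated muscle genes were low on the same array, and their part in these gaps was not tested.

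In C middle intestine, Slco4a1 (0.03 against 1.03 to 1.1, 0.936) and Slc2a9 (0.05 against 0.93 to 1.03, 0.896) were low on replicate 4, and Slc22a18 was high on replicate 3 (-0.0075 against -0.87 to -0.72, 0.830). In OH middle intestine, Slc22a8 was high on replicate 3 (-2.72 against -3.25 to -3.20, 0.896) and Slc2a5 on replicate 2 (1.90 against 0.33 to 0.56, 0.854). No member moved in opposite directions in the 2 tissues without overlap of its arrays.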

How the results depend on the processing

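Across 15 alternatives other than leaving out an array, 22 to 34 members were called between the tissues in C rats, and across 14 in OH rats 20 to 33; leaving out an array gave 28 to 30 and 24 to 28. Detected members ranged from 46 to 51 per stomach group and from 40 to 47 per intestinal group. Counts for OH against C depended on the setting. The share of all genes called is given for the settings in which it was counted by gene. Member counts given here without that share cannot be set against the rate over all genes. In stomach, 8 members were called with array weights (beside 5.67% of all genes) and 6 with the methods' ANOVA and Tukey's HSD (beside 3.12%). Leaving out an array gave 0 to 4, with 4 without C stomach replicate 2 (beside 1.59% of all genes). With no filter on dim probes 3 were called, including a member that the filter had left out. In middle intestine, 2 were called from Cy5 alone and 1 with the methods' test (beside 3.8% of all genes), and leaving out an array gave 0 to 0. With no filter 3 were called there, all of them members that the filter had left out. Slc16a12 and Slco1a5 were among them, and were well above background on no array. These genes were also called over the mean of both tissues with no filter. The difference between tissues ranged from 0 to 1 when an array was left out. Over the mean of both tissues, 0 were called with normexp and loess, with ratios quantile-normalized, on probes well above background on all 16 arrays, with the replicate block and at an adjusted p of 0.01, 2 from Cy5 alone, 5 with no filter, 5 with array weights, and 0 to 4 when an array was left out. Of 1588 recomputed values of named genes, 3 changed sign: Slco4a1 between the tissues in C rats without C stomach replicate 2 (0.070, from a range of -0.48 to 0.070 when an array was left out), and Slc16a3 with that replicate as the only C stomach array, an alternative chosen after seeing the data, between the tissues (-0.84) and for OH against C in stomach (0.17). A further 33 fell short of the threshold and 27 passed it. The cause was not tested, except that fewer probes or arrays enter some fits.

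The replicate numbers are only numbers: in C rats 6 of 8 samples and in OH rats 4 of 8 correlated best with their own number in the other tissue, as a hint from the data. With the replicate block, 30 members were called between the tissues in C rats, 27 in OH rats and 0 over the mean of both tissues. Signal over background limited what was tested: 29 members had ratios but did not pass the detection filter. Slide and scan day cannot be told apart from treatment.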
